A study of Mus musculus with 16 samples.

Results

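Pigment cell genes, 9 of the 21220 genes in the authors' normalized table, were followed in 16 RNA-seq libraries. The tissue was the organ of Corti, which carries the sound-sensing hair cells of the inner ear. They were chosen by name: Tyr, Tyrp1, Dct, Pmel, Mlana, Slc45a2, Mitf, Kit and Ednrb, and each symbol had 1 row. The organs were taken from newborn C57BL/6 mice (postnatal day 0) and were kept for 3.5 days in culture. Mice were either heterozygous for Rest(+/deltaExon4), an allele without exon 4 of the transcriptional repressor REST (Rest het below), or wild type (WT). Cultures received FK228 (romidepsin), which blocks class I histone deacetylases, at 2 nM, or its solvent, 0.1% DMSO, from day 1 to 1.5 and again from day 3 to 3.5 in vitro. The 4 groups were Rest het with FK228, Rest het with solvent, WT with FK228 and WT with solvent, with 4 libraries each. All groups shared the strain, age and culture schedule. For each library, RNA of 6 to 8 cultures was pooled. Whether pools are of different litters is not in the labels, so the p-values speak of the spread between pools alone.

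Melanocytes make melanin in melanosomes, organelles built on fibrils of the PMEL protein. Tyrosinase (Tyr) starts the synthesis from tyrosine, Dct and Tyrp1 act on later intermediates, and MITF, a transcription factor, drives the genes of melanin synthesis by binding E-boxes such as the M-box. In the cochlea the pigmented cells are the intermediate cells of the stria vascularis, which reach the inner ear from the neural crest with the help of the receptors KIT and EDNRB and which help to generate the endocochlear potential. The stria lies beside the organ of Corti in the lateral wall, and how much of it these cultures held was not measured.

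The promoters of the 3 melanin enzymes are shown because the enzymes' levels are compared below. A further reason is that the M-box, the element named above, or a near match lies in each. RefSeq promoter windows on GRCm38.p6 ran from 250 bases before to 50 bases after the annotated start and are printed 5′ to 3′ on the gene's strand, with the M-box, or in Dct the stretch nearest to it, in capitals. The windows are chr7:87493463-87493762 (minus strand) for Tyr, chr4:80833963-80834262 (plus strand) for Tyrp1 and chr14:118052197-118052496 (minus strand) for Dct.

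Tyr: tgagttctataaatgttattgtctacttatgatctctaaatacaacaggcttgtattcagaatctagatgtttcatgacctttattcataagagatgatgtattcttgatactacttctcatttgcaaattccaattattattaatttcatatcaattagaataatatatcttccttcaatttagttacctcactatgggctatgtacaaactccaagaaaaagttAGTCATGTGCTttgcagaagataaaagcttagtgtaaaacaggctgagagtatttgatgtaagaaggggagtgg
Tyrp1: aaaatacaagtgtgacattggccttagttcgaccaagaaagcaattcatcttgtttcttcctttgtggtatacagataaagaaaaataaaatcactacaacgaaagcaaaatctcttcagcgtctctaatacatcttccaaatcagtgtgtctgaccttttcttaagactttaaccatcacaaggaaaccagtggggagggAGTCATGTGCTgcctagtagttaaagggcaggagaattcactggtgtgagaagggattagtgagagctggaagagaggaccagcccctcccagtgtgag
Dct: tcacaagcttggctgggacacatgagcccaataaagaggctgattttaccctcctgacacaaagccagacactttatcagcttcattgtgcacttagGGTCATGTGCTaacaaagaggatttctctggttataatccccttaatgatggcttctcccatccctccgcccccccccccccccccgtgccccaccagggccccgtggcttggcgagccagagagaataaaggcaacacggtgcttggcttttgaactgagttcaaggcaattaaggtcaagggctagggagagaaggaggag

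The letters TCATGTG, searched on both strands, occurred in 3.77% of 32851 promoter windows and in those of Tyr, Tyrp1 and Dct. The 11 letters AGTCATGTGCT are this stretch of Tyr with 2 bases on either side. They began 24 bases before the RefSeq start of Tyr and 49 bases before that of Tyrp1. In GENCODE, used for the gene positions below, Tyrp1 begins further upstream, at 80834123, so the letters lie inside that span. The 11 letters occurred in 7 of the 32851 windows, which is 0.0213%. Dct held GGTCATGTGCT, with 10 of 11 letters in common, 153 bases before its start. The shorter CATGTG, which lies inside the M-box, occurred in 14.2% of all windows and in the windows of Tyr, Tyrp1 and Dct, while CACGTG, found in 7.15% of all windows, occurred in none of the 9 windows of the members. Mitf (3 windows), Kit (2 windows) and Ednrb (1 window) held neither CATGTG nor CACGTG, and Pmel, Mlana and Slc45a2 were not matched in the promoter table.

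The libraries held 12361027 to 23611571 gene counts each. Counts did not separate the strands. WT FK228 library 7 stood apart in Slc45a2, Tyr and Dct, with 3.58% to 9.17% of the mean of the other 3 libraries of its group. In Pmel, Mlana, Mitf, Kit and Ednrb it had 48.0% to 88.8%. Rest itself averaged 81.0 ± 4.80 CPM (counts per 1000000 gene counts of the library) in Rest het FK228, 88.3 ± 7.64 CPM in Rest het solvent, 73.8 ± 4.53 CPM in WT FK228 and 81.4 ± 5.42 CPM in WT solvent libraries (SD, n = 4 each). With TMM scaling Rest passed the test in no comparison. With spike-in scaling Rest was lower with FK228 in Rest het (-0.83, adjusted p = 1.71e-05). It was also lower in Rest het than in WT with FK228 (-0.60, adjusted p = 0.000627, against 0.13 with TMM). It passed in the interaction too (-0.54, adjusted p = 0.0439). Over all genes the medians with this scaling were -0.72, -0.74 and -0.56 in the same order, so Rest lay near the shift of all genes. The gene count also covers exons other than exon 4, so it does not check the genotype. Values below are CPM with the trimmed mean of M-values (TMM) scaling. Fold changes are on the log2 scale with their SE, and adjusted p-values come from edgeR's quasi-likelihood test over 17125 genes, with 0.05 as the threshold. TMM values are relative to the rest of the RNA. Scaling to ERCC spike-in RNA shifted the median of all genes by -0.72 for FK228 in Rest het and by -0.16 for FK228 in WT, on the log2 scale. The ERCC share of counts was 0.312% to 0.393% in Rest het FK228 and 0.165% to 0.232% in Rest het solvent libraries. In WT it was 0.182% to 0.237% with FK228 and 0.156% to 0.198% with solvent. Rest het FK228 thus lay above all other groups, and each spike-in comparison with this group carries that difference. Its cause was not tested.

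**Figure D1:**
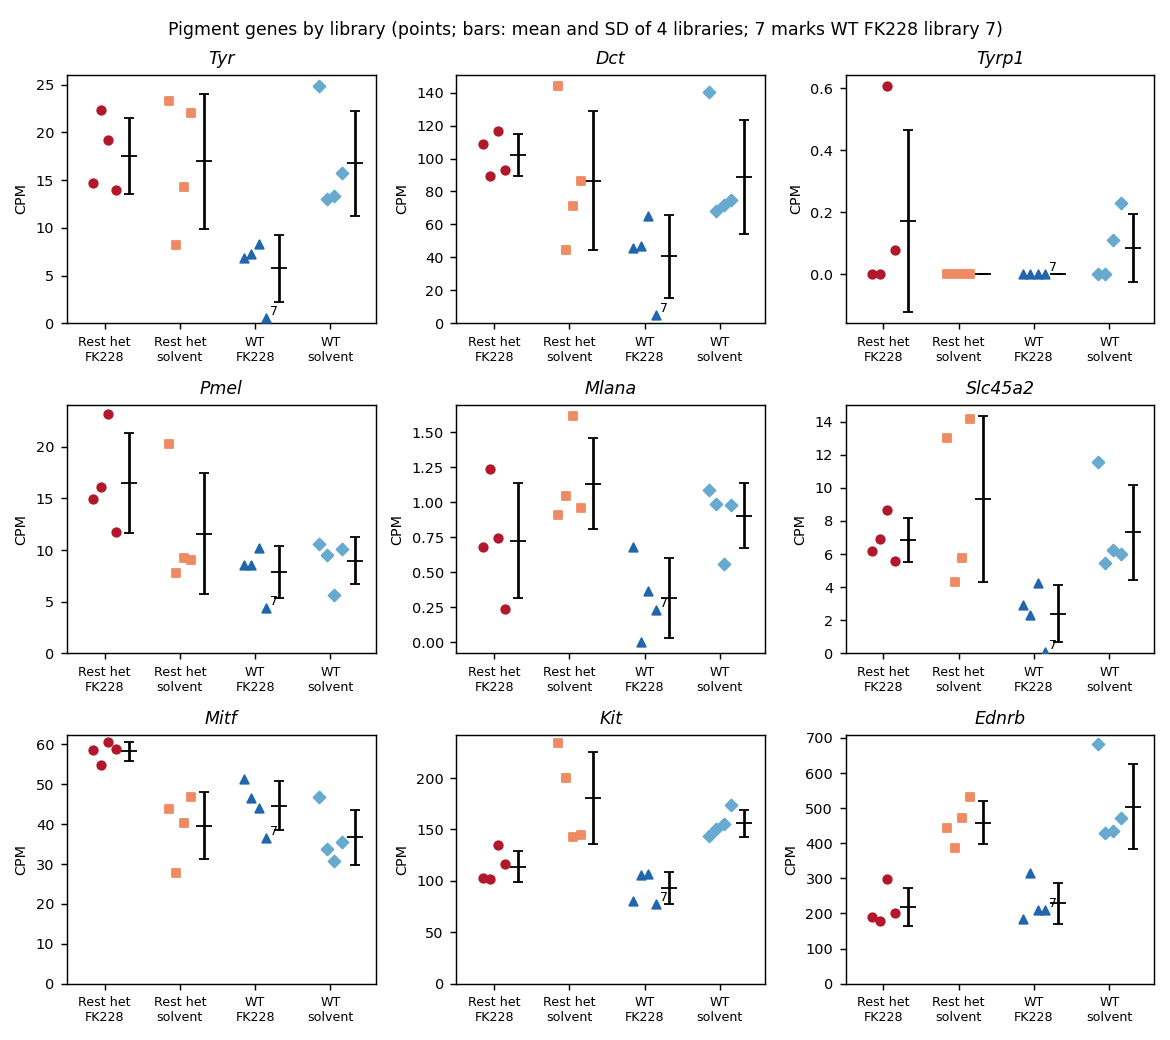
CPM of the 9 pigment genes (y axis, linear) in each library (points) of the 4 groups (x axis), with the mean and SD of 4 libraries as bars. Library 7 of WT FK228 has Tyr at 0.566 and Dct at 4.81 CPM, and Kit and Ednrb are lower in FK228 than in solvent libraries of both genotypes without overlap.

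Per kilobase of annotated exons, the members spanned a wide range of levels. In Rest het FK228 libraries the mean levels were 50.9 CPM per kb for Ednrb, 17.3 for Dct, 12.8 for Kit, 9.40 for Mitf, 7.18 for Pmel, 2.47 for Tyr, 2.29 for Slc45a2, 0.686 for Mlana and 0.0607 for Tyrp1. In WT solvent libraries they were 118 for Ednrb, 17.5 for Kit, 15.04 for Dct, 5.92 for Mitf, 3.91 for Pmel, 2.45 for Slc45a2, 2.36 for Tyr, 0.855 for Mlana and 0.0302 for Tyrp1. The receptors Ednrb and Kit and the enzyme Dct thus had the most RNA per length in both groups. Mlana and Tyrp1 had the least.

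In FK228 cultures the enzymes Tyr and Dct were lower in WT, while no such change was called in Rest het. Tyr, tyrosinase (chromosome 7, 87424771 to 87493512, minus strand, GRCm38), stood at 14.7, 22.4, 19.2 and 13.9 CPM in Rest het FK228 libraries and at 23.3, 8.25, 14.3 and 22.1 CPM in Rest het solvent libraries. It stood at 6.81, 7.31, 8.33 and 0.566 CPM in WT FK228 libraries, against 24.9, 13.04, 13.3 and 15.8 CPM in WT solvent libraries. The WT groups did not overlap, and the lowest value was that of library 7, which was 7.56% of the mean of the other 3 WT FK228 libraries. The Rest het groups overlapped throughout. Tyr fell by 1.55 ± 0.44 on the log2 scale with FK228 in WT (adjusted p = 0.00749). Without library 7 the fall was still called (-1.16 ± 0.31, adjusted p = 0.00527). In Rest het the difference was 0.05 ± 0.42 (adjusted p = 0.931), and -0.71 with spike-in scaling. In these pooled tissues, fewer cells of a type and less RNA per cell cannot be told apart.

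Dct, dopachrome tautomerase (chromosome 14, 118012790 to 118052244, minus strand), was the most abundant of the enzymes per length. Its levels were 109, 89.7, 117 and 93.0 CPM in Rest het FK228 libraries and 144, 44.3, 71.3 and 86.1 CPM in Rest het solvent libraries. In WT they were 45.6, 46.8, 64.9 and 4.81 CPM with FK228, against 140, 67.8, 71.6 and 75.0 CPM with solvent. The WT groups did not overlap, by a narrow margin, and library 7 was again the lowest, at 9.17% of the mean of the other 3. Dct fell by 1.13 ± 0.46 with FK228 in WT, just inside the threshold (adjusted p = 0.0491). Without library 7 the difference was -0.76 ± 0.30 and no longer passed (adjusted p = 0.0527). The call held in 3 of 16 fits that each left out 1 library (adjusted p = 0.0255 to 0.170), and the adjusted p was 0.0846 in DESeq2. In Rest het the difference was 0.24 ± 0.45 (adjusted p = 0.687), and -0.55 with spike-in scaling.

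Tyrp1, whose promoter holds the same M-box letters as that of Tyr (chromosome 4, 80834123 to 80851719, plus strand), was close to absent. It had 16 reads over all 16 libraries, against 20353 reads of Dct. Of these, 10 lay in Rest het FK228 libraries, 9 of them in library 4, and 6 in WT solvent libraries. Rest het solvent and WT FK228 libraries had 0 reads each, which allows up to 3 reads per library by counting error. Tyrp1 did not pass the filter on low counts and was not tested.

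Of the melanosome structural genes, Mlana was at the lower limit of detection and Pmel had an intermediate level. Pmel, which forms the fibrils of the melanosome (chromosome 10, 128704195 to 128720238, plus strand), had 14.9, 16.1, 23.1 and 11.7 CPM in Rest het FK228 libraries and 20.3, 7.79, 9.23 and 9.04 CPM in Rest het solvent libraries. In WT it had 8.51, 8.52, 10.2 and 4.36 CPM with FK228, against 10.6, 9.52, 5.61 and 10.1 CPM with solvent. Both pairs overlapped, and the high Rest het solvent value is library 1. Pmel passed neither FK228 test (0.51 ± 0.30, adjusted p = 0.171 in Rest het and -0.18 ± 0.31, adjusted p = 0.647 in WT). Without Rest het solvent library 1 the Rest het difference was called (0.92, adjusted p = 0.00976), and with spike-in scaling it was -0.28. Exons of Pmel overlap those of Cdk2 and Dgka on the opposite strand. Its unstranded count over all libraries, 2820 reads, was less than its counts by strand together (1574 and 1586). Reads in the overlap may thus be missing from its levels.

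Mlana, a small melanosome membrane protein (chromosome 19, 29697824 to 29708634, plus strand), had 0 to 24 reads per library. It stood at 0.682, 0, 0.362 and 0.226 CPM in WT FK228 libraries, against 1.08, 0.987, 0.561 and 0.980 CPM in WT solvent libraries, and these overlapped. The fall of 1.48 ± 0.57 in WT passed the test (adjusted p = 0.0402) but was lost in 6 of 16 fits without 1 library, namely WT FK228 library 2, 4 or 7 or WT solvent library 1, 2 or 4. In Rest het its range was 0.236 to 1.24 CPM with FK228 and 0.909 to 1.62 CPM with solvent (-0.62 ± 0.53, adjusted p = 0.353). With spike-in scaling the Rest het difference was -1.30 and was called (adjusted p = 0.0336).

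Slc45a2, a melanosome transporter needed for a pH at which tyrosinase works (chromosome 15, 11000721 to 11029233, plus strand), followed the enzymes. Its levels were 6.20, 6.89, 8.65 and 5.59 CPM in Rest het FK228 libraries and 13.002, 4.32, 5.79 and 14.2 CPM in Rest het solvent libraries. In WT they were 2.95, 2.30, 4.23 and 0.113 CPM with FK228, against 11.6, 5.45, 6.23 and 5.98 CPM with solvent. The WT groups did not overlap, and library 7 held 2 reads. Slc45a2 fell by 1.62 ± 0.51 in WT (adjusted p = 0.0134; -1.21 ± 0.39 and 0.0173 without library 7). The call was lost without WT solvent library 1, the highest of its group (-1.30, adjusted p = 0.0533). In Rest het the difference was -0.44 ± 0.48 (adjusted p = 0.467), but -1.23 and called with spike-in scaling (adjusted p = 0.0288).

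Mitf, the transcription factor of the melanocyte lineage, which is also used in other cells such as macrophages (chromosome 6, 97807052 to 98021349, plus strand), did not follow the enzymes under FK228. It stood at 58.7, 54.9, 60.7 and 58.9 CPM in Rest het FK228 libraries, against 43.8, 27.6, 40.3 and 46.7 CPM in Rest het solvent libraries, without overlap. In WT it stood at 51.2, 46.7, 44.1 and 36.6 CPM with FK228 and at 46.7, 33.8, 30.7 and 35.6 CPM with solvent, with overlap. Mitf rose in Rest het relative to the rest of the RNA (0.56 ± 0.15, adjusted p = 0.00425), while with spike-in scaling the same difference was -0.18 (adjusted p = 0.371). In WT the difference was 0.28 ± 0.15 (adjusted p = 0.121), and it was called without WT solvent library 1 (0.42, adjusted p = 0.0231). Library 7, so low in the enzymes, had 77.3% of the Mitf level of the other 3 WT FK228 libraries.

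The receptors fell with FK228 in both genotypes. Kit, the receptor tyrosine kinase for stem cell factor (chromosome 5, 75574916 to 75656722, plus strand), had 103, 102, 135 and 116 CPM in Rest het FK228 libraries, against 234, 200, 143 and 145 CPM in Rest het solvent libraries. In WT it had 80.7, 105, 107 and 77.9 CPM with FK228, against 144, 150, 155 and 174 CPM with solvent. Neither pair overlapped. Kit fell by 0.66 ± 0.15 in Rest het (adjusted p = 0.00115) and by 0.75 ± 0.15 in WT (adjusted p = 0.000398), and both falls were called in all 16 fits that left out 1 library.

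Ednrb, the endothelin receptor type B (chromosome 14, 103814625 to 103844402, minus strand), had 191, 180, 298 and 201 CPM in Rest het FK228 libraries, against 443, 386, 472 and 532 CPM in Rest het solvent libraries. In WT it had 183, 314, 209 and 209 CPM with FK228, against 683, 428, 434 and 471 CPM with solvent. Again neither pair overlapped, and WT FK228 library 7 lay among its group at 88.8% of the mean of the other 3. Ednrb fell by 1.08 ± 0.18 in Rest het (adjusted p = 0.000104) and by 1.14 ± 0.18 in WT (adjusted p = 5.85e-05), called in all 16 fits without 1 library. With spike-in scaling Kit and Ednrb fell in both genotypes too (Kit -1.43 and Ednrb -1.82 in Rest het, Kit -0.89 and Ednrb -1.24 in WT).

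Kit and Ednrb are also found outside pigment cells. Markers of mast cells, which carry KIT, were near 0: 4 of 9 were in the table, and their summed level was 0.551 to 1.15 CPM in Rest het FK228, 0.606 to 1.47 CPM in Rest het solvent, 0.113 to 0.967 CPM in WT FK228 and 0.230 to 0.841 CPM in WT solvent libraries. Of 13 Schwann and satellite glia markers tested, 10 fell and 1 rose with FK228 in Rest het, and 9 fell and 1 rose in WT, where 24.7% and 25.3% of all genes fell. Their summed level was 426 to 481 CPM in Rest het FK228 against 655 to 704 CPM in Rest het solvent libraries, and 443 to 520 CPM in WT FK228 against 622 to 774 CPM in WT solvent libraries. The median log2 fold change of the glia markers was -0.77 in Rest het and -0.88 in WT. All 12 macrophage markers fell in both genotypes (median -3.12 in Rest het and -2.69 in WT), with sums of 36.4 to 50.5 CPM in Rest het FK228 against 312 to 465 CPM in Rest het solvent libraries, and of 56.1 to 69.3 CPM in WT FK228 against 454 to 546 CPM in WT solvent libraries. The part of these cells in the levels of Kit, Ednrb and Mitf was not tested.

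**Figure D2:**
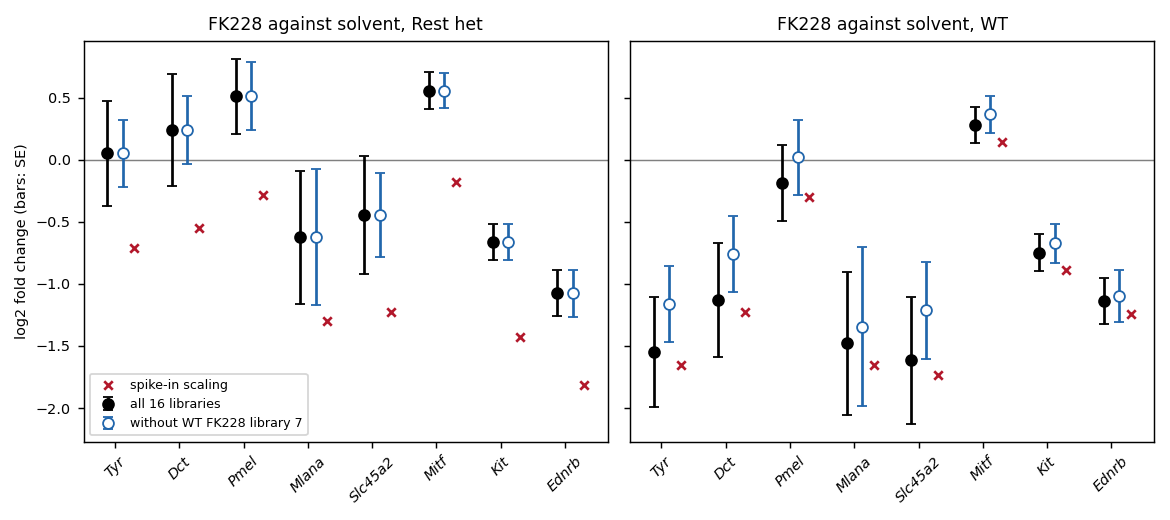
Log2 fold change of FK228 against solvent (y axis) for the 8 pigment genes tested, in Rest het (left) and WT (right); filled circles use all 16 libraries, open circles leave out WT FK228 library 7, bars are SE, and crosses use spike-in scaling. Kit and Ednrb lie below 0 in both genotypes under each of these fits, while Tyr, Dct and Slc45a2 reach -1.55, -1.13 and -1.62 in WT and lie between -0.44 and 0.24 in Rest het before spike-in scaling.

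Counted over the 8 members tested, 6 fell and 0 rose with FK228 in WT, in which 49% of all genes tested were called, 25.3% lower and 23.7% higher. Without library 7, 4 members were called (Tyr, Slc45a2, Kit and Ednrb), and with spike-in scaling 6 fell and 0 rose, with a median of -1.24. In 5 of 8 members the WT groups did not overlap, as in 44.7% of all genes. In Rest het, 2 fell and 1 rose, with 48.4% of all genes called, 24.7% lower and 23.8% higher. These 3 of 8 were the members whose Rest het groups did not overlap, as in 42.6% of all genes. With spike-in scaling 4 members fell and 0 rose in Rest het, and the median of the 8 members was -0.97. In that fit 10717 of 17125 genes fell and 807 rose, and the median of all genes was -0.72. The median log2 fold change of the 8 members was -0.20 in Rest het and -1.14 in WT, against 0.00 and -0.01 over all genes tested.

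Between genotypes, no member was called in either treatment with TMM scaling. With spike-in scaling Kit (-0.46, adjusted p = 0.0493) and Ednrb (-0.85, adjusted p = 0.000643) were lower in Rest het than in WT with FK228. In that fit 12761 of 17125 genes were called lower and 96 higher, with a median of all genes of -0.74. Kit lay above this median and Ednrb below it. With solvent, 0 of 8 members passed, and 0 had an unadjusted p under 0.05; DESeq2 also called 0. In this comparison 2.03% of all genes were called. The differences in the 8 members ran from -0.14 ± 0.18 for Ednrb to 0.37 ± 0.30 for Pmel, and all 8 pairs of groups overlapped, while 6.23% of all genes did not. With FK228, Tyr was higher by 1.61 ± 0.45 in Rest het than in WT (adjusted p = 0.0718), Slc45a2 by 1.52 ± 0.52 (adjusted p = 0.169), Dct by 1.33 ± 0.46 (adjusted p = 0.182), Pmel by 1.06 ± 0.31 (adjusted p = 0.0851) and Mitf by 0.38 ± 0.15 (adjusted p = 0.241). These 5 of 8 members did not overlap between the genotypes, as in 8.84% of all genes, and had an unadjusted p under 0.05, but none passed the threshold, which 2.14% of all genes did. Without library 7, 4 had an unadjusted p under 0.05, and the differences were 1.23 for Tyr, 1.11 for Slc45a2, 0.96 for Dct, 0.86 for Pmel and 0.30 for Mitf. With spike-in scaling the same differences were 0.86 for Tyr, 0.77 for Slc45a2, 0.58 for Dct, 0.31 for Pmel and -0.35 for Mitf. DESeq2 called 1 member (Pmel, adjusted p = 0.0178). The 3 members Tyr, Dct and Pmel were called without the filter on low counts, and Pmel and Mitf when only the groups compared were fitted. Pmel was also called without Rest het solvent library 1 (adjusted p = 0.0279).

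The difference between the FK228 effects of Rest het and WT was tested directly as an interaction. It was 1.60 ± 0.61 for Tyr (adjusted p = 0.741 from edgeR's quasi-likelihood test) and 1.37 ± 0.64 for Dct (adjusted p = 0.853). Of the 8 members, 0 passed after adjustment, 2 had an unadjusted p under 0.05, and DESeq2 called 0. Over all genes, 0.0234% passed. For Kit and Ednrb the interaction was 0.09 ± 0.21 and 0.06 ± 0.26, and it was -0.54 and -0.57 with spike-in scaling. The FK228 effects on Tyr and Dct were thus not shown to differ between the genotypes.

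Within a library, the reads of a gene can be set against those of Dct, which removes any scaling between libraries. Slc45a2 had 5.70% to 7.69% of the reads of Dct in Rest het FK228 libraries, against 8.12% to 16.5% in Rest het solvent libraries. In WT it had 2.35% to 6.51% with FK228, against 7.97% to 8.70% with solvent. The shares of Slc45a2 did not overlap in either genotype. Tyr had 13.5% to 25.0% of the reads of Dct in Rest het FK228 and 16.2% to 25.6% in Rest het solvent libraries, and 11.8% to 15.6% in WT FK228 against 17.7% to 21.1% in WT solvent libraries. The shares of Tyr overlapped in Rest het and did not overlap in WT. Mitf had 52.0% to 63.3% in Rest het FK228 and 30.4% to 62.4% in Rest het solvent libraries, and 68.0% to 760.0% in WT FK228 against 33.3% to 49.8% in WT solvent libraries. The highest share of Mitf belonged to library 7, in which Dct had 85 reads. These shares, compared after the values were seen, reached p = 0.0286 by an exact two-sided permutation test wherever 4 libraries did not overlap with 4, which is the smallest p possible. Over the 20 tests of 5 genes in 4 comparisons, the adjusted p was 0.0816 at the lowest, so none passed.

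**Figure D3:**
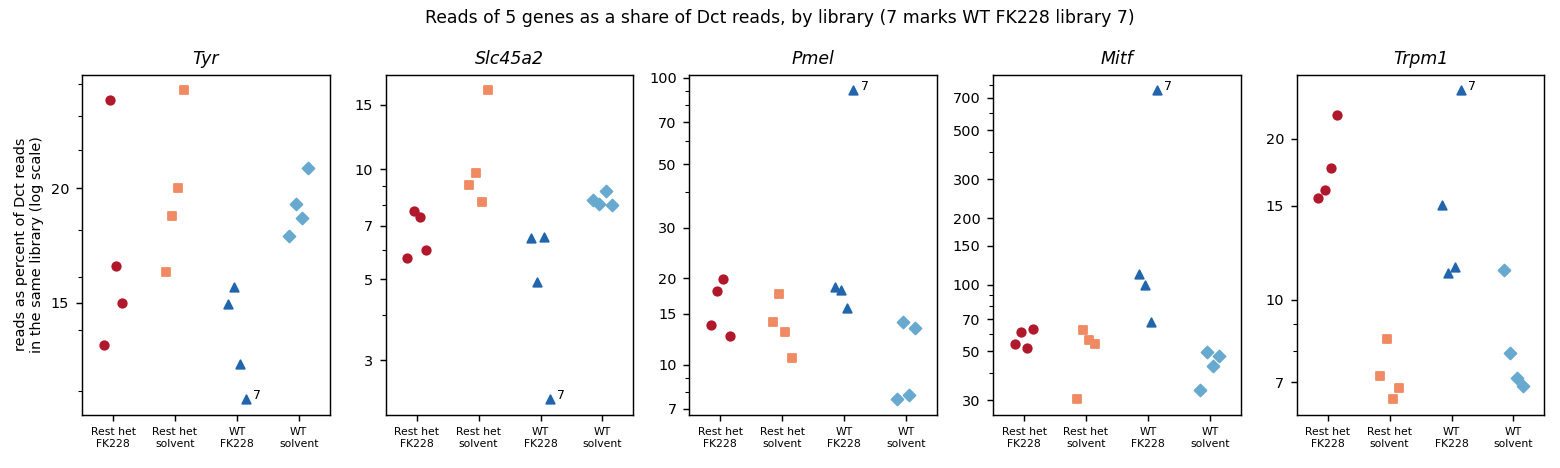
Reads of Tyr, Slc45a2, Pmel, Mitf and Trpm1 as a percent of the reads of Dct in the same library (y axis, log scale) by group (x axis), 1 point per library. Slc45a2 is lower in FK228 than in solvent libraries of both genotypes, and Trpm1 reads 15.5% to 22.2% in Rest het FK228 against 6.52% to 8.43% in Rest het solvent libraries.

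The members also varied from library to library inside groups, and some of them did so together. After subtracting group means of log2 CPM over the 16 libraries, Tyr and Slc45a2 had a Pearson r of 0.98 (Spearman rho 0.91), Dct and Slc45a2 an r of 0.97 (rho 0.86) and Tyr and Dct an r of 0.97 (rho 0.89). Permuting libraries within groups gave p = 0.00031, 0.00064 and 0.00114 for these r, and 0.00031, 0.00326 and 0.00184 for these rho. Adjusted over 36 pairs, the p-values of r were 0.00468, 0.00576 and 0.00586. Without the 2 libraries farthest from the median of the first gene, r was 0.92 for Tyr and Slc45a2, 0.89 for Dct and Slc45a2 and 0.87 for Tyr and Dct. The 3 genes for melanin synthesis thus went up and down together even without library 7 (r of 0.94, 0.92 and 0.91 in the same order). Pmel with Dct had an r of 0.75 (rho 0.76, permutation p = 0.00039 and 0.00113, adjusted p of r = 0.00468) and 0.69 without the 2 farthest libraries. Mitf with Dct had an r of 0.68 (rho 0.80, permutation p = 0.00736 and 0.00398, adjusted p of r = 0.0241) and 0.83 without those libraries. For Mlana, with few reads, no correlation passed, and r was 0.04 with Dct, 0.09 with Tyr and 0.10 with Slc45a2 (rho 0.09, 0.26 and 0.21, permutation p of r = 0.912, 0.781 and 0.777, adjusted p of r = 0.912, 0.833 and 0.833). For Kit and Ednrb the correlation with Dct did not pass, with an r of 0.38 and 0.31 (rho 0.37 and 0.51, permutation p of r = 0.278 and 0.348, of rho = 0.240 and 0.0648, adjusted p of r = 0.455 and 0.501), and 0.14 and 0.51 without the 2 farthest libraries.

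The genes most alike in this within-group pattern, out of all genes tested that are no members, were ranked by their r with the mean of Tyr, Dct, Pmel, Mlana and Slc45a2 over 16 libraries. They were Kcne1, Slc38a5, Trpm1, Fgf3, Cutal, Bsnd, Car3, Esrrb, Plcd1 and Ptgds, with an r of 0.85 to 0.89, and of 0.63 to 0.80 without WT FK228 library 7. Kcne1, a potassium channel subunit, Bsnd, a chloride channel subunit, and Esrrb, a nuclear receptor, are known from the marginal cells of the stria. Kcne1 stood at 20.8, 25.6, 34.0 and 31.8 CPM in Rest het FK228 libraries, against 20.1, 8.05, 16.8 and 12.7 CPM in Rest het solvent libraries. In WT it stood at 11.7, 10.03, 15.6 and 2.66 CPM with FK228 and at 29.7, 10.9, 12.7 and 15.97 CPM with solvent. As with Dct, library 7 was the lowest of WT FK228 and library 1 the highest of WT solvent.

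Of the 8 marginal cell markers, chosen for comparison after their values were seen, Kcne1 and Esrrb passed the test of correlation with Dct. Both already stood among the genes most alike. Those were ranked by r with a mean that includes Dct in the same libraries, so passing is no independent evidence. Kcne1 had an r of 0.92 (rho 0.89, permutation p = 0.00101 and 0.00074, adjusted p of r = 0.00586, r of 0.82 without the 2 farthest libraries). The other 6, Kcnq1, Atp1b2, Lrp2, Hmx2, Dclk1 and Atp13a5, did not pass, with an r of 0.76, 0.64, 0.51, 0.39, 0.21 and -0.12 in this order (adjusted permutation p of 0.0990 to 0.833). Esrrb had an r of 0.90 (rho 0.91, permutation p = 0.00012 and 0.00019, adjusted p of r = 0.00432, r of 0.79 without them). Kcne1 rose with FK228 in Rest het (0.96 ± 0.38, adjusted p = 0.0454), and so did Esrrb (1.02 ± 0.39, adjusted p = 0.0366). Neither passed with spike-in scaling (0.20 for Kcne1 and 0.27 for Esrrb), and the calls held in 7 and 11 of 16 fits without 1 library. In WT they were -0.80 ± 0.39 (adjusted p = 0.0951) and -0.49 ± 0.39 (adjusted p = 0.308). The summed level of all 8 markers was 559 to 758 CPM in Rest het FK228 and 640 to 716 CPM in Rest het solvent libraries, and 439 to 620 CPM in WT FK228 and 645 to 872 CPM in WT solvent libraries. Atp1b2, a subunit of the sodium pump, also rose in Rest het (0.40 ± 0.15, adjusted p = 0.0403), but was -0.31 with spike-in scaling. Atp13a5 fell by 1.49 ± 0.40 in Rest het (adjusted p = 0.00506) and by 1.35 ± 0.39 in WT (adjusted p = 0.00841), and Dclk1 fell by 0.63 ± 0.12 in Rest het (adjusted p = 0.000349) and by 0.75 ± 0.12 in WT (adjusted p = 6.48e-05). In Rest het 3 of 8 rose and 2 fell with FK228, where 23.8% of all genes rose and 24.7% fell. With spike-in scaling 0 rose and 3 fell in Rest het, where 10717 of all 17125 genes fell. In WT 2 fell and 0 rose, where 25.3% of all genes fell and 23.7% rose. The median log2 fold change of the 8 markers was 0.19 in Rest het and -0.62 in WT, and -0.35 in WT without library 7. No gene of the list was at 0 in a whole group. How much strial tissue the dissection left in each pool was not measured, and its part in the levels of the pigment genes was not tested.

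**Figure D4:**
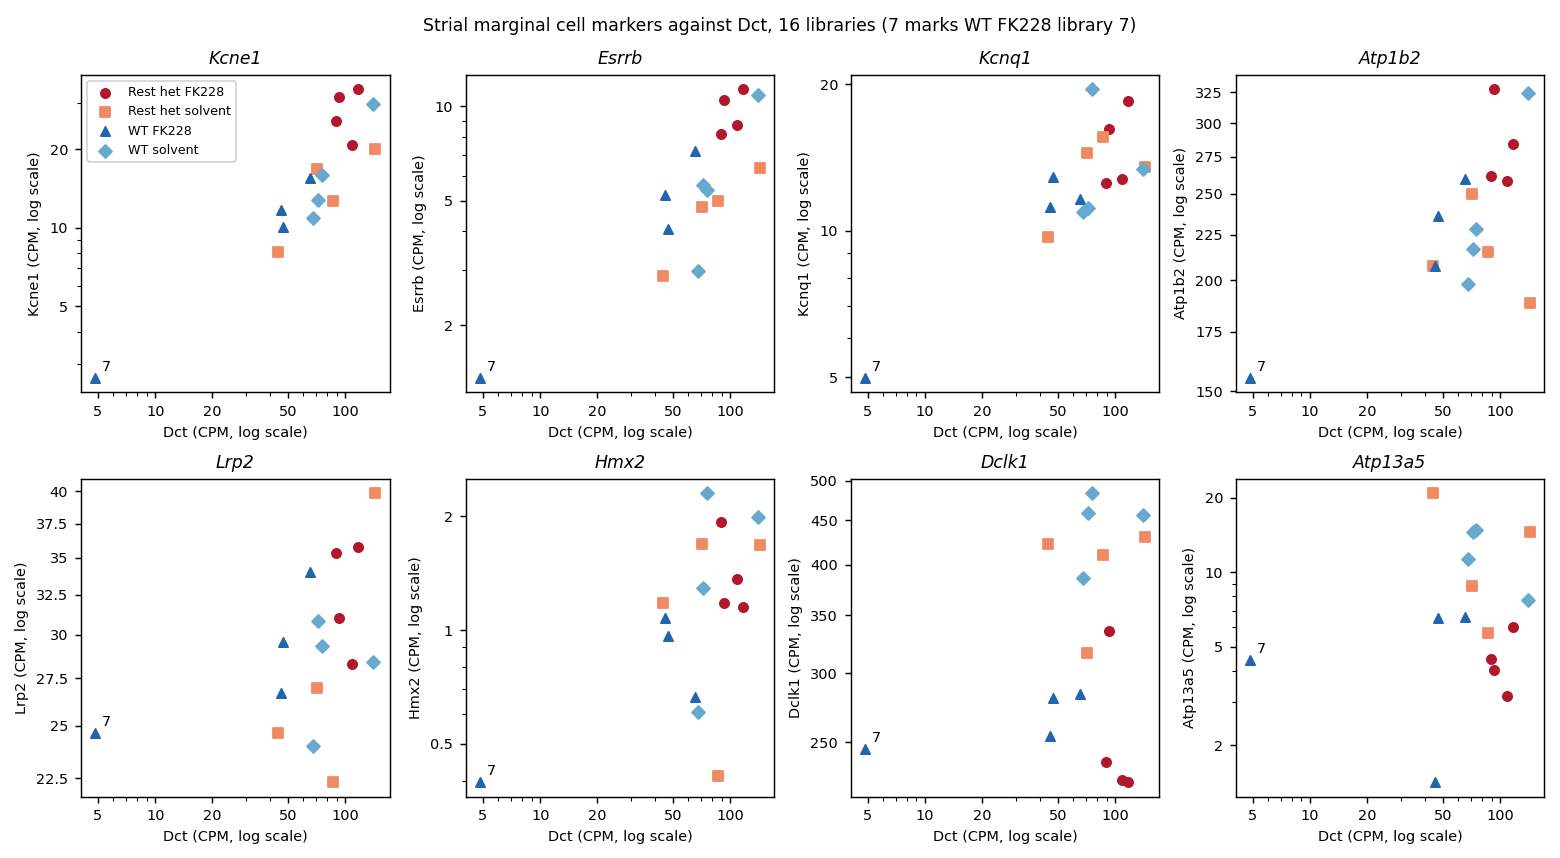
CPM of all 8 strial marginal cell markers (y axes, log scale) against CPM of Dct (x axes, log scale) in 16 libraries, by group. Library 7 of WT FK228 lies at the lower left for Kcne1 and Esrrb, with Dct at 4.81 and Kcne1 at 2.66 CPM, while Dclk1 and Atp13a5 have an r with Dct of 0.21 and -0.12 after subtracting group means.

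Of 7 intermediate cell markers, a list that contains Trpm1, Gpnmb, Met and Bsnd, 1 rose and 1 fell with FK228 in Rest het. In WT 3 fell and 0 rose. Of all genes, 48.4% were called in Rest het and 49% in WT. Their summed level was 78.6 to 96.8 CPM in Rest het FK228 and 88.9 to 138 CPM in Rest het solvent libraries. It was 50.7 to 72.9 CPM in WT FK228 against 116 to 169 CPM in WT solvent libraries. The WT ranges did not overlap. Gpnmb, a part of this sum, averaged 16.4 CPM in WT FK228 and 66.4 CPM in WT solvent libraries. The median log2 fold change of the 7 was -0.27 in Rest het and -0.62 in WT, and -0.40 in WT without library 7. With spike-in scaling 0 rose and 5 fell in Rest het, where 10717 of all 17125 genes fell. Trpm1, Gpnmb and Met also stand in the pathway lists below, and Bsnd is known from marginal cells. Of 4 markers of the basal cells of the stria, 3 fell and 0 rose with FK228 in each genotype. Of all genes, 24.7% fell in Rest het and 25.3% in WT. The median log2 fold change of these 4 was -0.60 in Rest het and -0.61 in WT.

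Among signals and their receptors around pigment cells, Edn3, the ligand of EDNRB, fell with its receptor. Edn3 averaged 3.96 ± 2.17 CPM in Rest het FK228 and 12.1 ± 0.94 CPM in Rest het solvent libraries, and 4.08 ± 1.35 CPM in WT FK228 and 12.0 ± 2.54 CPM in WT solvent libraries (SD, n = 4 each). It fell by 1.60 ± 0.31 in Rest het (adjusted p = 0.000369) and by 1.56 ± 0.31 in WT (adjusted p = 0.000389). Kitl, the ligand of KIT, was at 45.2 ± 4.93 CPM in Rest het FK228 and 45.3 ± 1.57 CPM in Rest het solvent libraries (0.00 ± 0.10, adjusted p = 0.991). In WT it rose slightly, to 49.5 ± 5.75 CPM with FK228 against 40.9 ± 4.14 CPM with solvent (0.27 ± 0.10, adjusted p = 0.0266), while with spike-in scaling the difference was 0.13 (adjusted p = 0.487). Of the 6 genes of this list tested, 1 rose and 1 fell in Rest het, and 2 rose and 2 fell in WT, against 48.4% and 49% of all genes called, with medians of -0.20 and -0.35. With spike-in scaling 0 rose and 4 fell in Rest het, where 10717 of all 17125 genes fell.

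Of 10 transcription factors of the lineage tested, 5 fell and 0 rose with FK228 in each genotype, where 24.7% (Rest het) and 25.3% (WT) of all genes fell, with a median log2 fold change of -0.46 in Rest het and -0.48 in WT. Zeb2, a zinc finger factor of neural crest derivatives, fell by 1.82 ± 0.19 in Rest het (adjusted p = 3.8e-07) and by 1.46 ± 0.18 in WT (adjusted p = 4.03e-06). Tfeb, a relative of MITF that drives lysosome genes, fell by 1.19 ± 0.18 in Rest het (adjusted p = 2.15e-05) and by 0.98 ± 0.17 in WT (adjusted p = 0.000119). Sox10, which acts upstream of Mitf and also marks glia, fell by 0.39 ± 0.11 in Rest het (adjusted p = 0.00829) and by 0.49 ± 0.11 in WT (adjusted p = 0.00124). Pax3 had 0.165 to 3.16 CPM over all libraries and passed neither test (adjusted p = 0.316 in Rest het and 0.799 in WT).

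Of 9 genes for transport across the melanosome membrane and related membrane proteins, 3 rose and 1 fell with FK228 in Rest het (1 rose and 4 fell with spike-in scaling), and 2 rose and 2 fell in WT, near the 48.4% and 49% of all genes called. Their medians were 0.15 in Rest het and -0.16 in WT. Of all 17125 genes, 10717 fell in Rest het with spike-in scaling. Mfsd12, a cysteine importer of melanosomes and lysosomes, rose by 1.70 ± 0.13 in Rest het, to 35.5 ± 3.92 CPM with FK228 against 10.9 ± 1.72 CPM with solvent (adjusted p = 1.23e-08). In WT it rose by 1.57 ± 0.13, to 31.9 ± 3.26 CPM against 10.7 ± 1.55 CPM (adjusted p = 2.96e-08). Gpnmb, a glycoprotein of melanosomes that macrophages also make, fell by 0.80 ± 0.18 in Rest het (adjusted p = 0.00153) and by 2.02 ± 0.19 in WT (adjusted p = 1.16e-07). Oca2, Gpr143 and Slc24a5, further proteins of the melanosome, passed neither FK228 test, with differences of -0.11, 0.15 and 0.18 in Rest het and -0.08, -0.53 and 0.25 in WT.

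Of 20 genes for the biogenesis and movement of melanosomes, 7 rose and 4 fell with FK228 in Rest het, and 4 rose and 6 fell in WT, near the 48.4% and 49% of all genes called; with spike-in scaling 1 rose and 13 fell in Rest het and 1 rose and 6 fell in WT. Their medians were 0.15 in Rest het and 0.12 in WT. Of all 17125 genes, 10717 fell in Rest het with spike-in scaling. Dtnbp1, a subunit of the BLOC-1 complex, rose by 0.81 ± 0.14 in Rest het (adjusted p = 0.000108, and 0.11 with spike-in scaling, adjusted p = 0.602) and by 0.84 ± 0.14 in WT (adjusted p = 6.37e-05). Rab32, which sends cargo to melanosomes, fell by 1.63 ± 0.22 in Rest het (adjusted p = 6.24e-06) and by 1.64 ± 0.21 in WT (adjusted p = 3.83e-06). Cd63, a tetraspanin that sorts PMEL, fell by 0.61 ± 0.06 in Rest het (adjusted p = 3.42e-07) and by 0.51 ± 0.06 in WT (adjusted p = 2.83e-06). Vps33a, a subunit of vesicle tethering complexes, fell by 0.52 ± 0.08 in Rest het (adjusted p = 3.7e-05) and by 0.37 ± 0.08 in WT (adjusted p = 0.000877).

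Between genotypes in FK228 cultures, 3 of 45 genes tested in these 4 pathway lists were called, all higher in Rest het, against 2.14% of all genes. Without WT FK228 library 7, 1 was called. With spike-in scaling 2 were higher and 34 lower, where 12761 of all 17125 genes were lower and 96 higher. Trpm1, a cation channel of melanocytes, stood at 16.9, 14.4, 20.6 and 20.6 CPM in Rest het FK228 libraries, against 6.87, 5.26, 7.49 and 1.19 CPM in WT FK228 libraries. The groups did not overlap, and library 7 was the lowest. The difference was 1.80 ± 0.44 (adjusted p = 0.0366), and 1.47 without library 7 (adjusted p = 0.0796). The call of Trpm1 held in 8 of 16 fits without 1 library. Mlph, which links melanosomes to the myosin motor, stood at 4.31, 2.90, 3.92 and 3.30 CPM in Rest het FK228 libraries, against 0.795, 1.81, 1.63 and 1.47 CPM in WT FK228 libraries (1.34 ± 0.32, adjusted p = 0.0316, held in 11 of 16 fits). Without library 7 the call of Mlph was lost (1.35, adjusted p = 0.0847). Slc7a11, the cystine transporter that feeds pheomelanin synthesis and is active in many cells, stood at 7.49, 11.7, 8.38 and 1.57 CPM in Rest het FK228 libraries, against 0.738, 0.846, 0.906 and 0.623 CPM in WT FK228 libraries. With solvent Slc7a11 stood at 11.5, 8.12, 12.3 and 12.9 CPM in Rest het and at 3.89, 3.14, 6.51 and 6.49 CPM in WT libraries. These groups did not overlap either, as in 6.23% of all genes, but Slc7a11 was not called there. With FK228 the difference of Slc7a11 was 3.23 ± 0.45 (adjusted p = 0.000385) and was called in all 16 fits. With spike-in scaling the differences were 1.06 for Trpm1 (adjusted p = 0.0281), 0.58 for Mlph (adjusted p = 0.155) and 2.51 for Slc7a11 (adjusted p = 0.000131).

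Trpm1 also separated by treatment within Rest het, with 10.3, 3.73, 4.65 and 5.89 CPM in Rest het solvent libraries. It rose with FK228 by 1.56 ± 0.44 (adjusted p = 0.00654), while the difference was 0.77 with spike-in scaling (adjusted p = 0.107). In WT solvent libraries Trpm1 had 15.95, 5.39, 5.10 and 5.17 CPM, and the difference with FK228 was -0.62 ± 0.44 (adjusted p = 0.258). The interaction of Trpm1 was 2.18 ± 0.62 (adjusted p = 0.516 from edgeR's quasi-likelihood test) and did not pass. With solvent, Trpm1 differed between Rest het and WT by -0.38 ± 0.44 (adjusted p = 0.861).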

How the data were processed

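Polyadenylated RNA of 16 libraries was measured in unstranded, paired-end libraries. The authors deposited gene-level counts in each sample's file and a table of normalized signal (counts divided by size factors). The submitters' processing notes name STAR 2.5.2a, GRCm38.p4 and DESeq2. Here the unstranded column was read, because either strand held about the same share. All values of the deposited signal table came out as whole reads to within 0.001 reads once multiplied by a factor per library, and testing those reads was an alternative chosen after seeing the data. Reads in no gene (10.4% to 20.8%) and ERCC spike-in RNA (0.156% to 0.393%) stayed out of library sizes.

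Tests used edgeR 4.0.16 in R 4.3.3 (filterByExpr with a minimum count of 10 and total of 15, TMM, quasi-likelihood, 4 group means, 16 libraries, Benjamini-Hochberg over 17125 genes). The test was first tried on simulated counts with known changes. Positions come from GENCODE M21 and promoters from RefSeq. Alternatives were DESeq2 1.42.0, RLE factors, spike-in scaling, no filter, a stricter filter (50 reads in 4 libraries), a block for the replicate number, a fit of the compared groups alone, and each library left out. Correlations used 100000 permutations of libraries within groups, on log2 CPM with a prior count of 2. Replicate numbers do not pair the samples.

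The members and all lists, of which 130 of 137 symbols were matched, were chosen with earlier results of these data known. The text names Rest, all members, up to 6 genes per comparison with the smallest adjusted p from the 4 pathway lists, Kitl, Edn3, Sox10, Pax3, Oca2, Gpr143 and Slc24a5, and the 10 genes most alike, leaving out clone names. The strial, mast cell, glia and macrophage markers come from the marker lists.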

Additional observations from a re-analysis of the deposited data

Results flagged for a closer look

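In groups of 4 libraries, 36 in all for the 9 members, the highest or lowest library was compared with its neighbours by Dixon's test, and 5 groups had a library far from the others. Chance flags about 1 in 20 groups. Library 1 of WT solvent was the highest by this test in 3 genes, with Dct at 140 CPM, Ednrb at 683 CPM and Slc45a2 at 11.6 CPM. Library 1 of Rest het solvent was the highest in Pmel, at 20.3 CPM. Library 4 of Rest het FK228 was the highest in Tyrp1, at 0.608 CPM, which is 9 reads. WT FK228 library 7, the lowest of its group in Tyr, Dct, Pmel, Slc45a2, Mitf and Kit, did not reach the critical value in any gene.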

How the results depend on the processing

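The falls of Kit and Ednrb with FK228 in both genotypes, and that of Tyr in WT, kept their direction and their call under each alternative and without each library. Spike-in scaling turned round differences for FK228 in Rest het (Tyr -0.71, Dct -0.55, Pmel -0.28, Mitf -0.18). It did so too for Rest het against WT with solvent (Tyr -0.074, Mitf -0.025) and with FK228 (Mitf -0.35, Kit -0.46). In the interaction it turned round Mitf (-0.32), Kit (-0.54) and Ednrb (-0.57). It shifted the median of all genes by -0.18 with solvent, -0.74 with FK228 and -0.56 in the interaction, and the share of called genes that were higher was 7% instead of 49% for FK228 in Rest het, 30.8% instead of 48.4% for FK228 in WT, 35.1% instead of 59.4% for Rest het against WT with solvent and 0.747% instead of 56.6% with FK228. The cause was not tested.

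For Rest het against WT with solvent, 347 genes were called, 550 with DESeq2 and 211 with the replicate block. With FK228 there were 366, against 638 with DESeq2, 12857 with spike-in scaling, 107 with the block and 188 to 421 without 1 library (235, 237, 221 and 188 without Rest het FK228 library 4 or WT FK228 library 1, 4 or 7, in this order); the members called were 0, against 1 with DESeq2, 2 with spike-in scaling (both lower), 3 without a filter, 2 with only the groups compared and 0 to 1 without 1 library. The interaction called 4 genes, 29 with DESeq2, 4069 with spike-in scaling, 10 without a filter, 0 with the block and 2 to 6 without 1 library. In the block fit Tyr with solvent was -0.028. Replicate numbers did not pair the samples: r ran from -0.23 to 0.17 over 17 pairs, and 1 of 15 libraries correlated best with its own number.

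Leaving out 1 library turned small, uncalled differences round: Pmel with FK228 in WT (-0.35 to 0.019), Tyr with FK228 in Rest het (-0.18 to 0.24), the genotypes with solvent (Tyr -0.18 to 0.27, Dct -0.40 to 0.27, Pmel -0.046 to 0.52, Ednrb -0.22 to 0.043) and with FK228 (Ednrb -0.27 to 0.11), and the interaction (Kit -0.010 to 0.24, Ednrb -0.13 to 0.24). Members called numbered 4 to 6 for FK228 in WT and 3 to 4 in Rest het. Depth limits Tyrp1 and Mlana, with at most 24 reads per library.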
